A study of Homo sapiens with 6 samples.

Results

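The mature miRNAs made from introns of the pantothenate kinase genes were examined, which are hsa-miR-103a-3p, hsa-miR-107 and hsa-miR-103a-2-5p. They were taken by name and were 3 of the 1596 mature miRNAs counted. All 3 were among the 758 that passed the filter on low counts. Small RNA of a human melanoma cell line was sequenced after 24 hours of treatment, in 3 libraries from RSL3 given alone and 3 from RSL3 given together with IFN-gamma, to profile miRNAs in IFN-γ-driven ferroptosis. RSL3 inactivates GPX4, the enzyme that clears lipid peroxides from membranes, and is common to both groups, so no library came from untreated cells. IFN-γ is a cytokine by which activated T cells act on tumor cells. The sample labels name the line as A2058 whereas the study's methods name A375, both established melanoma lines, and the labels give no dose. The study's figure legends give a higher RSL3 dose for A2058 than for A375 and the same IFN-γ dose for both. The methods state in general that experiments were repeated, but neither they nor the labels say whether these libraries came from separate cultures, and p-values therefore describe library-to-library spread that may be purely technical.

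Pantothenate kinases carry out the first and rate-limiting step of coenzyme A synthesis, and each of PANK1, PANK2 and PANK3 holds a miRNA hairpin in an intron. A hairpin is cut by Drosha and Dicer into a duplex, of which mostly 1 arm is loaded into Argonaute and directs it to mRNAs that pair with its seed, bases 2 to 8. MiR-103 and miR-107 are best known for repressing caveolin-1 and so insulin sensitivity, and for repressing Dicer itself. Neither host transcripts nor target mRNAs were measured here.

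The 3 hairpins occupied the same place in their hosts. On GRCh38 (GENCODE 29), MIR103A1 lies at chr5:168560896-168560973 on the minus strand, in intron 5 of 6 of PANK3. MIR103A2 lies at chr20:3917494-3917571 on the plus strand, in intron 5 of 6 of PANK2. MIR107 lies at chr10:89592747-89592827 on the minus strand, in intron 5 of 6 of PANK1. Each hairpin has the strand of its host, and none overlaps an exon of a coding transcript. MiR-103a-3p is made from MIR103A1 and MIR103A2 alike, whereas miR-103a-2-5p is assigned to MIR103A2 alone.

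The mature sequences (RefSeq, GRCh38.p14, all 3 matched by name) show which members could act on the same mRNAs. Capitals mark the seed.

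hsa-miR-103a-3p: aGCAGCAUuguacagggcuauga

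hsa-miR-107: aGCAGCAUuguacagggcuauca

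hsa-miR-103a-2-5p: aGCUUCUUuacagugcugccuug

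MiR-103a-3p and miR-107 had the same seed, which no other of the 1425 listed miRNAs with a mature sequence shared. MiR-103a-2-5p, the opposite arm, had a seed of its own. All 3 are 23 bases long with a GC content of 47.8%. The 2 matures with the common seed were also alike in the rest, 22 of 23 bases being identical, with 1 substitution, G22C (positions from 1 at the 5′ end, the base of miR-103a-3p first). It is in capitals here.

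hsa-miR-103a-3p: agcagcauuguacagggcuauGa

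hsa-miR-107: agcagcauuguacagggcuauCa

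A read that ends within the first 21 bases fits both. The sources used here do not give how the authors assigned such reads. The split between miR-103a-3p and miR-107 is thus uncertain, and their sum is given beside them. MiR-103b, the exact reverse complement of miR-103a-3p, and miR-103a-1-5p, which differs from miR-103a-2-5p by 1 substitution, G1A (miR-103a-1-5p first), are not among the entries analysed here.

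Libraries held 4383940 to 6513382 counts. Values are in CPM, that is, read counts brought to one common library size with TMM scaling factors, which ran from 0.861 to 1.33. Of 10 miRNAs of melanocytes and melanoma, 7 had reads in every library, with miR-146a-5p at 85689 to 147753 CPM and the melanocytic miR-211-5p at 269.9 to 387 CPM. MiR-506-3p, miR-508-3p and miR-509-3p were near 0, at most 2.97 CPM, while miR-514a-3p, of the same cluster, was at 50.1 to 75.9 CPM with RSL3 and fell to 14.5 to 30.3 CPM with IFN-γ (log2 fold change −1.38, edgeR adjusted p = 0.0374). The melanocytic miR-204-5p was at 238 to 344 and 161 to 174 CPM, lower without overlap (log2 fold change −0.75, edgeR adjusted p = 0.0750), whereas the log2 fold changes of miR-211-5p and miR-146a-5p were 0.23 and 0.20. The 6 miRNAs of epithelium summed to 162 to 201 CPM with RSL3 and to 116 to 158 CPM with RSL3 and IFN-γ, lower without overlap as was miR-103a-3p. The most abundant of them, miR-203a-3p, overlapped between groups at a log2 fold change of −0.28. MiR-200a-3p, miR-200b-3p and miR-200c-3p were at −0.35, −0.78 and −0.84 (edgeR adjusted p = 0.651, 0.179 and 0.204). MiR-205-5p, at most 4.83 CPM, was at 0.43, and miR-141-3p was at most 2.37 CPM. The 5 of blood cells summed to 101 to 168 and 84.1 to 328 CPM. The 4 of fibroblasts summed to 244 to 1078 and 254 to 429 CPM, the 3 of muscle to 178 to 1333 and 204 to 278 CPM, and miR-122-5p of liver was at 29.05 to 90.3 and 68.3 to 174 CPM. The part of other cells or RNA in the values below was not tested.

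MiR-103a-3p, the main product of 2 of the 3 hairpins, was lower in each library of RSL3 plus IFN-γ than in any library of RSL3 monotreatment. The difference missed the threshold in edgeR's main fit, which ignored replicate numbers. With these numbers as a block it passed, but that pairing is an assumption. MiR-103a-3p was measured at 11974, 8259.7 and 11494 CPM in RSL3 replicates 1, 2 and 3. With IFN-γ it was at 6621, 5002 and 6106 CPM. The groups did not overlap, and replicate 2 was the lowest of each group. The means were 10576 ± 2020.1 and 5910 ± 827 CPM (SD, n = 3 each). The log2 fold change was −0.84 (standard error, SE, 0.236; 95% interval −1.36 to −0.32), which is 0.559 of the RSL3 level with an interval of 0.389 to 0.803. By edgeR's quasi-likelihood test its unadjusted p was 0.00486, at rank 56 of 758, and its adjusted p was 0.0648. By edgeR 0 of the 3 members were called (adjusted p under 0.05) and 1, miR-103a-3p, had an unadjusted p below 0.05. DESeq2 called 1 member, also miR-103a-3p, and limma 0. Without RSL3 replicate 2, or without replicate 1 of the combined treatment, miR-103a-3p passed edgeR's test, with log2 fold changes of −1.01 and −0.94. Over all tested miRNAs edgeR called 4.75%, DESeq2 12.5% and limma 4.22%, and 25.9% had an unadjusted p below 0.05 by edgeR. Lower values without overlap between the groups were seen in 14.8% of all tested miRNAs.

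Within replicate numbers the difference of miR-103a-3p in TMM-scaled CPM was of nearly one size. Its log2 ratio was −0.85 in replicate 1, −0.72 in replicate 2 and −0.91 in replicate 3. With the replicate number as a block, miR-103a-3p fell by 0.83 on the log2 scale (SE 0.179; edgeR, adjusted p = 0.0374), as 5.67% of all tested miRNAs fell in that fit. Over the 679 tested miRNAs with a mature sequence, GC content and log2 fold change had a Spearman correlation of 0.47, and with this trend removed as well the log2 fold change was −0.78 (SE 0.163; edgeR, adjusted p = 0.0613), of nearly the same size. Raw shares of the library, which use no TMM factor, did not overlap either, at 1.03%, 0.754% and 1.01% of all counts with RSL3 and at 0.625%, 0.665% and 0.705% with RSL3 and IFN-γ. The exact 95% intervals (Clopper-Pearson), which cover counting error only, reached from 0.747% upwards in the former and up to 0.712% in the latter. Raw shares were closer within replicate 2 than within replicates 1 and 3, so the even size rests on the TMM factors (0.913 and 1.33 in replicate 2). With library totals the log2 fold change was −0.49 (edgeR, adjusted p = 0.160), where the median of all was 0.33. The block was not fitted with library totals, and overlap in raw shares was not counted over all miRNAs.

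MiR-107, the product of the PANK1 hairpin, was in the same range in both treatment groups. It was measured at 483, 253 and 571 CPM in RSL3 replicates 1, 2 and 3. With IFN-γ it was at 387, 327 and 420 CPM, all between the values of RSL3 replicate 2 and replicate 1. The RSL3 libraries were the more spread, with means of 436 ± 164 and 378 ± 47.3 CPM (SD, n = 3 each). The log2 fold change was −0.21 (SE 0.301; edgeR, adjusted p = 0.70). Its 95% interval, −0.87 to 0.46, took in both no change and the change of miR-103a-3p. Within replicate numbers the log2 ratio was −0.32, 0.37 and −0.44, so that replicate 2 went the other way. Without RSL3 replicate 3 the log2 fold change was 0.00304, and without RSL3 replicate 2 it was −0.50.

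MiR-103a-2-5p, the arm of the PANK2 hairpin that is mostly discarded, was counted in only 22 to 46 reads per library. It was at 9.07, 6.48 and 3.85 CPM in RSL3 replicates 1, 2 and 3. With IFN-γ it was at 7.25, 6.15 and 4.68 CPM, within the range of the RSL3 libraries. The log2 fold change was −0.11 (SE 0.41; edgeR, adjusted p = 0.89), and its 95% interval, −1.02 to 0.80, was wide at this depth. It was 0.23 without RSL3 replicate 1 and 0.04 without replicate 3 of the combined treatment.

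**Figure D1:**
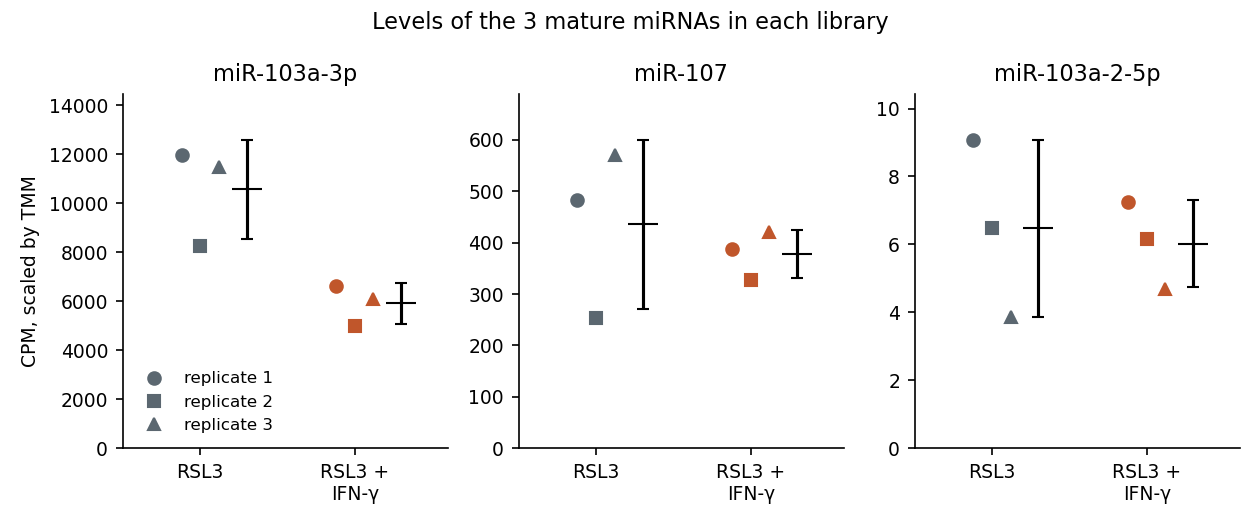
CPM (linear axes from 0) of miR-103a-3p, miR-107 and miR-103a-2-5p in the 3 RSL3 libraries (grey) and the 3 RSL3 plus IFN-γ libraries (orange), with a marker shape per replicate number and the mean ± SD of each group beside the points. The groups are apart for miR-103a-3p, at 8259.7 to 11974 and 5002 to 6621 CPM, and overlap for the other two.

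The sum of miR-103a-3p and miR-107 stayed close to miR-103a-3p, and it does not depend on how reads common to both were split as long as each was counted once. It was 12457, 8513 and 12065 CPM in RSL3 replicates 1, 2 and 3. With IFN-γ it was 7008, 5328 and 6526 CPM, below every RSL3 library. The log2 fold change was −0.81 (SE 0.237; edgeR, adjusted p = 0.0746). With the replicate block it was −0.80 and the sum fell, at an edgeR adjusted p = 0.0394.

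By level the members lay far apart. MiR-103a-3p was at rank 20 of 1596 by mean CPM over the 6 libraries, miR-107 at rank 119 and miR-103a-2-5p at rank 540. Mature miRNAs of equal length were compared, although adapters join to different ends with different ease, so the ratio of reads need not be that of molecules. Around miR-103a-3p, at a mean of 8243 ± 2905 CPM (SD over the 6 libraries), the order was let-7b-5p (8323 CPM), miR-320a-3p (8297), miR-103a-3p, let-7g-5p (7583) and miR-25-3p (7214). Around miR-107, at 407 ± 113 CPM (SD over the 6 libraries), it was miR-96-5p (408 CPM), miR-320b (408), miR-107, miR-1301-3p (407) and miR-516b-5p (404). None of these neighbours differed from the member by more than its spread over the libraries.

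The share of miR-107 among the reads of both was higher in every RSL3 plus IFN-γ library than in any RSL3 library. It was 3.88%, 2.98% and 4.73% in RSL3 replicates 1, 2 and 3, with exact 95% intervals of 3.73% to 4.03%, 2.81% to 3.15% and 4.58% to 4.90%. With IFN-γ it was 5.52%, 6.13% and 6.43%, with intervals of 5.26% to 5.79%, 5.86% to 6.40% and 6.19% to 6.68%. No interval of one group touched one of the other, but these intervals cover counting error only. Those of RSL3 replicates 1, 2 and 3 did not touch one another either. The means were 3.86% ± 0.88 and 6.03% ± 0.465 (SD, n = 3 each), a difference of 2.16 percentage points. An exact permutation test, two-sided, gave p = 0.1, the smallest that 3 libraries against 3 allow. Within replicate numbers the share was higher by 1.64, 3.15 and 1.70 percentage points.

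This ratio needs no scaling between libraries, and it was tested over all miRNAs by setting each against miR-103a-3p in the same library. MiR-107 relative to miR-103a-3p had a log2 change of 0.67 (SE 0.325, 95% interval −0.01 to 1.36, edgeR adjusted p = 0.113), against 33.9% of 757 miRNAs that rose relative to miR-103a-3p. With the replicate block the log2 change was 0.70 and passed (edgeR adjusted p = 0.0302), as did 46.6% of all upwards. Relative to miR-103a-3p 47.2% of all miRNAs had higher values without overlap between the groups, so in this miR-107 was near the background.

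The arms of the MIR103A2 hairpin were far from balance in every library. There were 1320, 1274 and 2986 reads of miR-103a-3p for each read of miR-103a-2-5p in RSL3 replicates 1, 2 and 3. With IFN-γ there were 914, 814 and 1305, and replicate 3 of that group lay just above replicate 2 of the RSL3 group. These ratios need not be those of MIR103A2 itself, since MIR103A1 gives the same 3p arm. Whether reads of miR-103a-1-5p, which differs by 1 base, were counted as miR-103a-2-5p is not known either. The log2 ratio of 3p over 5p reads changed by −0.79 (SE 0.439, 95% interval −1.79 to 0.21, adjusted p = 0.363 from limma over 182 hairpins), and without RSL3 replicate 3 by −0.39. By limma 0% of the hairpins were called, with 35 at an unadjusted p under 0.05 and no other tool run.

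**Figure D2:**
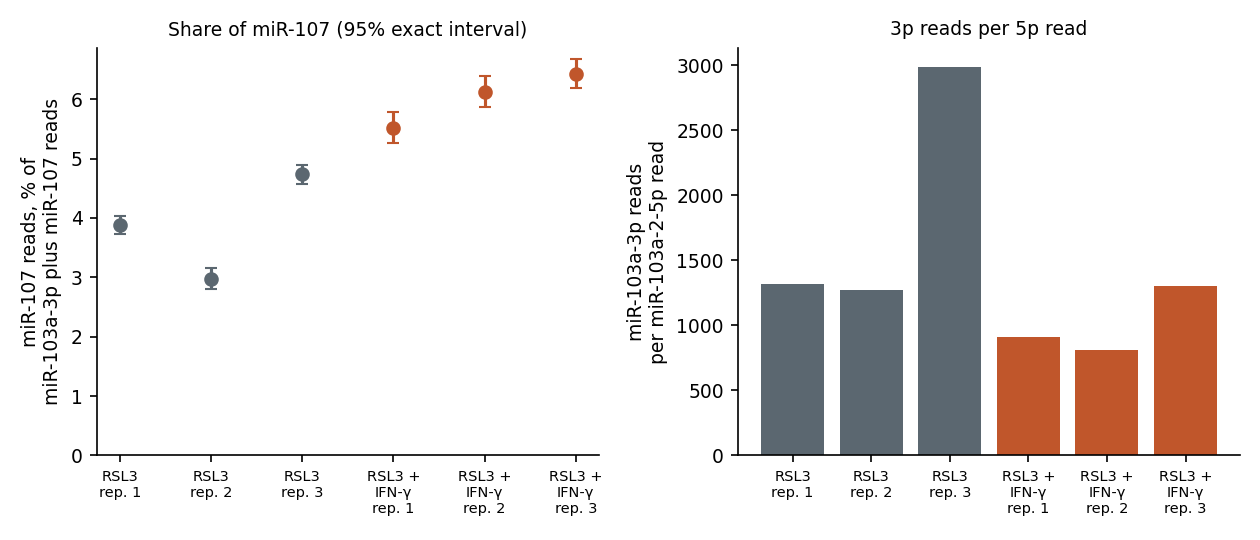
Left, reads of miR-107 as a percentage of the reads of miR-103a-3p and miR-107 in each library, with exact 95% intervals, RSL3 in grey and RSL3 plus IFN-γ in orange. All 3 orange points (5.52% to 6.43%) lie above the grey ones (2.98% to 4.73%). Right, reads of miR-103a-3p per read of miR-103a-2-5p, which overlap between groups, with RSL3 replicate 3 the highest at 2986.

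The seed of miR-103a-3p and miR-107 is that of the miR-15 and miR-16 family moved by 1 base. Both belong to the miR-15 and miR-107 group, whose members hold AGCAGC near the 5′ end and which restrain cyclins and other cell cycle genes. In miR-103a-3p and miR-107 the motif starts at base 1, and in the rest of the group at base 2, as these members show (seed in capitals).

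hsa-miR-16-5p: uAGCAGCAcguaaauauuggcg

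hsa-miR-195-5p: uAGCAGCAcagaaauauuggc

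hsa-miR-424-5p: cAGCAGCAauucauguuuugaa

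hsa-miR-503-5p: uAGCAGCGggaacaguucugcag

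Of the 11 miRNAs of this group, 10 were in the table and 9 were tested, and these 10 were also the only ones of the 1425 with AGCAGC starting at base 1 or 2. MiR-103a-3p made up 86.8% to 88.6% of the group's reads in the RSL3 libraries and 79.999% to 85.7% with RSL3 and IFN-γ. Summed over the group, its share of all counts was 0.851% to 1.18% in RSL3 libraries and 0.729% to 0.848% with IFN-γ. By edgeR 0 of the 9 passed, with 2 below 0.05 before adjustment (25.9% of all tested miRNAs were), while DESeq2 called 1 and limma 0, and with the replicate block miR-103a-3p alone did. Their median log2 fold change was −0.21, which is the value of miR-107 itself, beside −0.04 over all tested miRNAs. It was 0.00988 with the GC trend removed and −0.09 without RSL3 replicate 1. With library totals as the scaling it was 0.16, where the median of all was 0.33. Its distance from the median of all was −0.17 to −0.15 over the 4 scalings, the same as that of miR-107. Such factors shift all miRNAs nearly alike, so this distance could hardly move. Of the 9 values 6 lay below 0, as did 51.6% of those of all tested miRNAs.

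Among the others of the group, miR-195-5p had the lowest log2 fold change. It was at 13.2, 8.05 and 9.10 CPM with RSL3 and at 5.31, 7.51 and 4.36 CPM with RSL3 and IFN-γ, without overlap, a log2 fold change of −0.82 (SE 0.364; edgeR, adjusted p = 0.186). MiR-16-5p, the most abundant after miR-103a-3p, went from 698 ± 174 to 487 ± 54.9 CPM (SD, n = 3 each) with overlap, a log2 fold change of −0.52 (edgeR adjusted p = 0.224). The values were −0.26 for miR-15a-5p and −0.18 for miR-15b-5p. Those of miR-424-5p, miR-497-5p and miR-503-5p were 0.12, 0.16 and 0.18. The tenth, miR-6838-5p, with at most 5 reads in a library, was not tested.

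MiRNAs in introns of other genes of lipid and energy metabolism were set beside the PANK introns. Both arms of miR-33a, miR-378a and miR-1908 were counted as separate entries. Of 8, 7 were tested, of which 0 passed by edgeR, with 1 below 0.05 before adjustment, beside 25.9% of all, while DESeq2 and limma also called 0. Their median log2 fold change was 0.43, which is the value of miR-378a-3p, on the other side of 0 from miR-103a-3p. It lay 0.44 to 0.49 above the median of all tested miRNAs over the 4 scalings, a distance that such factors leave nearly unchanged. It was 0.12 with the GC trend removed, 0.82 with library totals, 0.27 without replicate 2 and 0.26 without replicate 3 of the combined treatment. MiR-33a-5p, from an intron of the sterol regulator SREBF2, had 27 to 83 reads a library. It was at 7.30, 6.04 and 10.5 CPM with RSL3 and at 14.01, 14.2 and 12.9 CPM with RSL3 and IFN-γ. Its log2 fold change was 0.78 (edgeR adjusted p = 0.156). MiR-378a-3p, from an intron of PPARGC1B, a coactivator of mitochondrial genes, had a log2 fold change of 0.43, and miR-378a-5p of 0.36. The values were −0.47 for miR-33a-3p and −0.22 for miR-33b-3p, from SREBF2 and SREBF1. MiR-33a-3p, opposite in direction to its other arm, had only 9 to 54 reads a library (SE 0.549). For miR-1908-5p and miR-1908-3p, from an intron of the fatty acid desaturase gene FADS1, they were 0.65 and 0.52, the latter from 7 to 48 reads a library (SE 0.613).

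**Figure D3:**
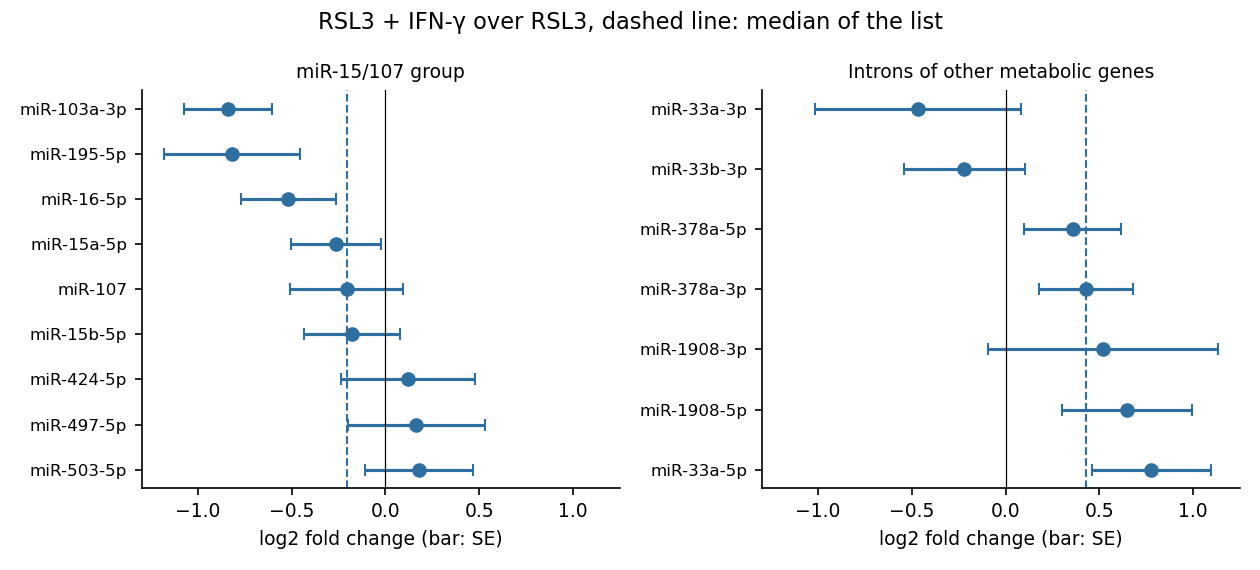
Log2 fold changes (points) with standard errors (bars), RSL3 plus IFN-γ over RSL3, of the tested members of the miR-15 and miR-107 group (left) and of miRNAs in introns of other metabolic genes (right). Dashed lines are the medians, −0.21 (the value of miR-107) and 0.43 (the value of miR-378a-3p). MiR-103a-3p at −0.84 and miR-195-5p at −0.82 are the lowest on the left.

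The miRNAs with the course most like that of miR-103a-3p over the 6 libraries, by Pearson correlation of log2(CPM + 1) among the 473 miRNAs of at least 10 CPM, were miR-199b-5p (0.99), miR-17-5p (0.99), miR-767-5p (0.99), miR-548d-5p (0.98) and miR-140-5p (0.98). All 5 were lower with IFN-γ, miR-17-5p, for example, at 6517 CPM on average with RSL3 and at 3292 CPM with RSL3 and IFN-γ. MiR-107 was less like miR-103a-3p, at 0.55. Closest to miR-107 were miR-520a-5p (0.95), miR-424-3p (0.93), miR-181a-3p (0.91), miR-105-5p (0.91) and let-7a-3p (0.90), in each of which RSL3 replicate 2 was the lowest of the 6 libraries. Closest to miR-103a-2-5p were miR-29c-5p (0.81), miR-146a-3p (0.73), miR-145-5p (0.73), miR-19b-1-5p (0.72) and miR-574-5p (0.71). These correlations are descriptions of 6 libraries, which share the difference between groups and their depth.

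Set among all tested miRNAs, the distance of miR-103a-3p from their median was −0.82 to −0.80 on the log2 scale. The scalings were TMM, DESeq2 size factors, upper-quartile factors and library totals, over which the median itself went from −0.13 to 0.33. Such factors shift all miRNAs of a library alike, so the distance could hardly move and does not test the scaling. For miR-107 the distance was −0.17 to −0.15 and for miR-103a-2-5p −0.08 to −0.07. Without the median as reference, miR-107 and miR-103a-2-5p were at 0.16 and 0.25 when library totals were used with no further scaling, and miR-103a-3p at −0.49.

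**Figure D4:**
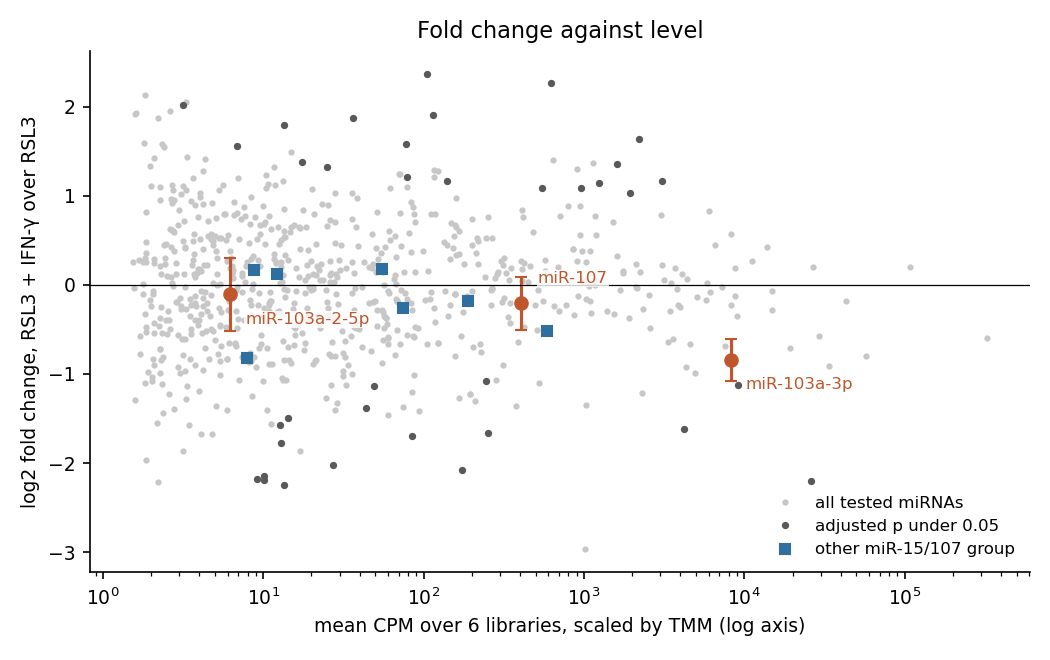
Log2 fold change, RSL3 plus IFN-γ over RSL3, against mean CPM (log axis) of the 758 tested miRNAs (light grey; dark grey where the adjusted p from edgeR was under 0.05). The 3 members are orange with standard errors and the other tested members of the miR-15 and miR-107 group are blue squares. MiR-103a-3p lies at 8243 CPM and −0.84.

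**Figure D5:**
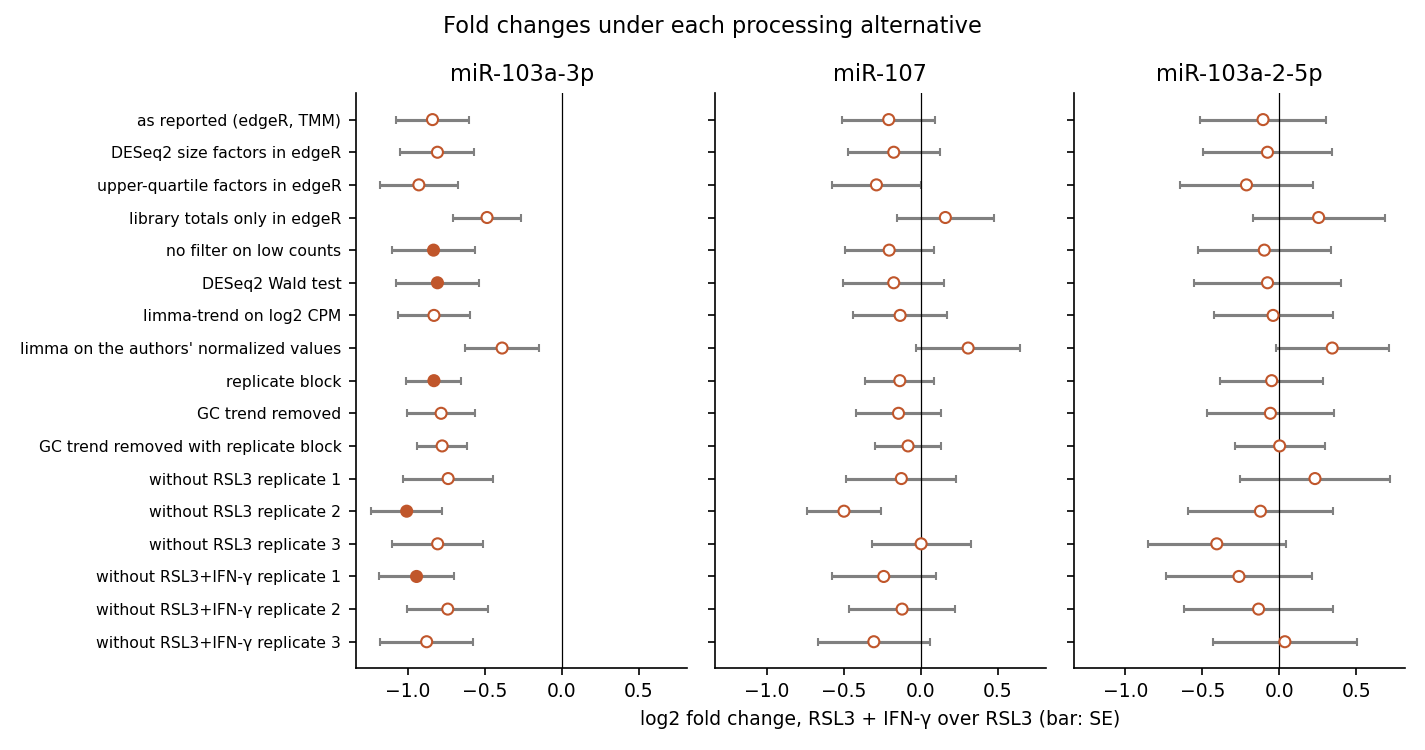
Log2 fold changes (points) with standard errors (bars) of the 3 members under each way of processing, filled where the adjusted p was under 0.05. MiR-103a-3p lies below 0 throughout, from −1.01 to −0.39, and is filled in 5 of the alternatives. MiR-107 and miR-103a-2-5p are never filled and lie on either side of 0.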

How the data were processed

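The authors sequenced small RNA and deposited, for each mature miRNA and library, a raw read count and a normalized signal, which is that count times a constant of each library (its sums are 1.03 to 1.16 times those of CPM without TMM factors), as well as a log2 fold change, a ratio and a p-value of the authors' own comparison, which were not used. The submitters' notes list GRCh38, edgeR, Bowtie 1.1.1 and bcl2fastq. No source used here gives the miRBase release or the treatment of multiply matching reads. Labels and methods also differ on the library kit.

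The quasi-likelihood test of edgeR 4.0.16 (R 4.3.3) was run on the raw counts (TMM, filterByExpr set to 10 counts and 15 in total, two-sided, Benjamini-Hochberg over all 758 kept miRNAs). For ratios to miR-103a-3p its log count was the offset. Arm ratios, with 0.5 reads added, were fitted by limma 3.58.1, keeping hairpins whose arms each averaged 10 reads or more. Steps were tested on simulated data. DESeq2 1.42.0, limma, other scalings, no filter, a GC correction (679 of the 758 have a mature sequence), the replicate block and each library left out were alternatives. Same-numbered libraries deviated together (correlations 0.227, 0.217 and 0.207, all above 0.1), which was taken as pairing, although deviations within a group of 3 are tied to one another. By chi-square per degree of freedom, each library with IFN-γ had RSL3 replicate 2 as its nearest RSL3 library, whatever its number. For replicate 1 with IFN-γ it was 185, against 362 to RSL3 replicate 1. For replicate 3 with IFN-γ it was 408, against 578 to RSL3 replicate 3. The pairing is thus an assumption. The labels do not say what the numbers stand for. Groups came from the sample titles. MiRNAs named are the members, the 2 lists, the 5 closest in course to each member and the 2 neighbours by level on either side. The members and lists were chosen with earlier results of these data known.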

Additional observations from a re-analysis of the deposited data

How the results depend on the processing

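MiR-103a-3p kept its direction under all 16 alternatives. It passed without a filter on low counts (−0.83, adjusted p = 0.0340), by DESeq2 (−0.81, adjusted p = 0.0284) and with the replicate block (−0.83, adjusted p = 0.0374), and otherwise with adjusted p from edgeR or limma of 0.0548 (upper-quartile factors) to 0.288 (authors' normalized values). Leaving out single libraries gave −1.01 to −0.74, past the threshold without RSL3 replicate 2 (−1.01, adjusted p = 0.0359 from edgeR) and without replicate 1 of the combined treatment (−0.94, adjusted p = 0.0276), with adjusted p of 0.129 to 0.274 without the others. The sum with miR-107 passed under the same 5 alternatives, at −0.81, −0.78 and −0.80 without filter, by DESeq2 and with the block, and ranged from −0.98 to −0.71 with libraries left out.

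With library totals only and with the authors' normalized values, miR-107 turned to 0.16 and 0.31 and miR-103a-2-5p to 0.25 and 0.34, and the median of the miR-15 and miR-107 group to 0.16 and 0.24. That of the metabolic introns was 0.82 and 0.77. With the GC trend removed these medians were 0.00988 and 0.12, and the latter 0.0778 with the block as well, where miR-103a-2-5p was at 0.00144. With libraries left out miR-107 ranged from −0.50 to 0.00304 (without RSL3 replicate 3), miR-103a-2-5p from −0.41 to 0.23, miR-107 relative to miR-103a-3p from 0.51 to 0.85, the share of miR-107 from 1.72 to 2.60 percentage points, the arm ratio from −1.003 to −0.39, and the list medians from −0.31 to −0.09 and 0.26 to 0.61. The replicate block took miR-107 relative to miR-103a-3p past the threshold (0.70) and changed no other call than those given. With 22 to 46 reads a library, depth limits miR-103a-2-5p.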
